A study of Mus musculus and Mus spretus with 72 samples.

Results

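The comparison described here set the liver/kidney RNA of 6 Mus musculus musculus males against that of 6 Mus musculus domesticus males. It used 12 of the 72 arrays of a study of expression divergence among house mice and Mus spretus. The arrays were chosen by the sub-species and organ in their titles, with no measured value used. Every array had 2 channels: one held the RNA of a single male (here called musculus or domesticus), and the other a same-organ pool from 9 mice of the inbred laboratory strain C57BL6. All animals were about 12 weeks old. Brain and testis of the same animals were hybridised against pools of their own organs, and they serve here only to set the liver/kidney differences beside other tissues. The main test also drew its estimate of spread from other liver/kidney arrays. Those were of 3 castaneus animals, 3 Mus spretus animals and 6 animals of a group labelled ssp. The labels name no treatment, do not give the source of the animals (wild-caught or colony) and do not say in what proportion liver and kidney were combined.

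Musculus and domesticus are the eastern and western house mice of Europe, sub-species that meet in a narrow hybrid zone, and C57BL6 is a laboratory strain of largely domesticus ancestry. The liver makes most plasma proteins and clears foreign compounds and ammonia, while the kidney filters blood and recovers solutes along its tubules. In male mice the liver also secretes major urinary proteins, small carriers of scent molecules that leave the body in urine. A mixed liver/kidney extract averages the cells of both organs, so fewer cells of a type and less RNA per cell cannot be told apart.

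Each value was taken as a log2 ratio of one animal to the pool. The 2 adjacent spots of a probe were averaged, and the array's median was then set to 0. With base 2, a difference of 1 is 2-fold. Neither the log base nor the direction of the deposited ratio is given in the sources used here. Every fold below rests on base 2. The direction was taken as animal over pool. Every sign below would turn if the ratio ran the other way, and "higher" and "lower" would swap. The 12 arrays had a value at 43864 to 44193 of 46128 spots, which gave 22089 probes, of which 15801 carried 1 gene symbol and 5994 had no name. Values of the 2 spots of a probe correlated at r = 0.53 to 0.73 across probes within an array. Arrays of 1 sub-species correlated across probes at a median r of 0.47 in musculus and 0.42 in domesticus, against 0.36 between the sub-species, and the ranges overlapped.

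Ratios to a same-organ pool carry no absolute level, so liver and kidney markers could not be checked for presence, only for differences. Of 37 marker genes for 9 cell and tissue types, 30 were measured with 31 probes, and none passed the test between the sub-species. Marker differences ran from -0.21 for Cd3e, of T cells, to 0.27 for Kap, the androgen-regulated protein of the proximal tubule. Albumin (Alb) differed by -0.18 ± 0.15 (SE, n = 6 per group). Skeletal muscle actin (Acta1) stood above the pool by a mean of 1.23 in musculus and 1.26 in domesticus, with a difference of -0.03 ± 0.44. The other markers of fat and muscle did not share this level. Ckm, also of muscle, had means of -0.16 in musculus and -0.39 in domesticus, and Adipoq, of fat, 0.18 and 0.10.

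In liver/kidney, few genes separated the sub-species, and most of those were higher in musculus. limma, fitted with the 5 groups of mice of this organ sharing 1 estimate of spread, called 122 of 20652 probes at a Benjamini-Hochberg adjusted p under 0.05 (0.591%). Of these, 100 were higher in musculus (0.484%) and 22 lower (0.107%). By gene, 103 of 13643 genes with 1 symbol had a called probe (0.755%), 84 higher and 19 lower. The 5 named genes with the largest rises were Gpc6, Lrrc8d, Gria3, Tulp4 and Tfap2a, and the 5 with the largest falls were Mtus2, Hhatl, Prl7a1, Rgs16 and Hmga2. Most differences were modest: the median called difference was 0.69 among the higher probes and -0.63 among the lower ones, 79 reached 1.5-fold, and 15 reached 2-fold, 13 of them higher in musculus. A fit of the 12 arrays alone called 250 of 21510 probes (1.16%), and array weights raised the count to 319, with 69.3% of them higher in musculus against 82.0% here. Leaving out musculus animal 04 lowered the count to 66, and leaving out musculus animal 05 lowered it to 72.

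For 105 of the 122 called probes, all 6 musculus values lay on 1 side of all 6 domesticus values, as they did for 294 of all 20652 probes (1.42%). Genes whose groups overlapped although the test called them included Tyrp1, Efnb2, Morf4l1, Chkb, Mc3r, Ncam1, Tbl1xr1, Rad54l2, Pycrl, Ddx41, Amtn, Lce1b and Mrto4. Among the 100 higher probes, 74 had a musculus mean above the pool and a domesticus mean below it. Among the 22 lower probes, 20 had both means below the pool, so that the lower musculus mean was also the farther from 0. These counts of sides describe the called probes only, with no share over all probes beside them.

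**Figure D1:**
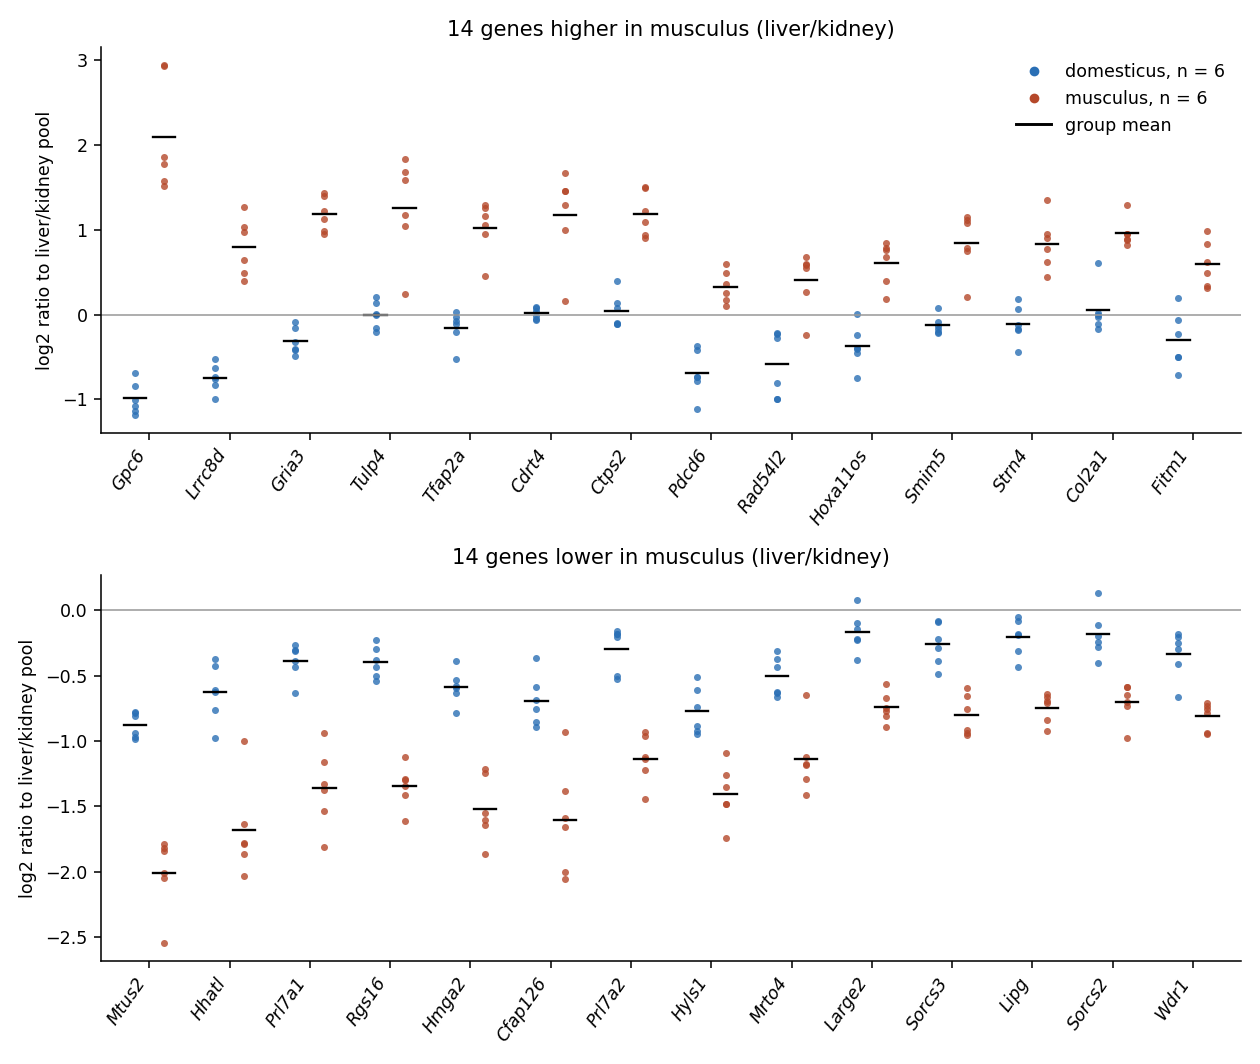
Log2 ratio to the liver/kidney pool (vertical axis) for 14 named genes higher (top) and 14 lower (bottom) in musculus, largest differences first, with 1 point per animal (n = 6 per sub-species), a bar at each group mean and a line at 0, the pool. Gpc6 shows the widest gap, with musculus from 1.52 to 2.94 and domesticus from -1.19 to -0.69, and for the lower genes most animals of both sub-species lie below the pool.

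Gpc6 showed the largest difference of all tested probes with a gene symbol. It encodes glypican 6, a heparan sulphate proteoglycan tethered to the outer cell membrane that binds growth factors. In musculus its ratio ran from 1.52 to 2.94 with a median of 1.81, and in domesticus from -1.19 to -0.69 with a median of -1.04. Every musculus animal was above the pool and every domesticus animal below it. The difference was 3.08 ± 0.38 (SE), 8.48-fold, with an adjusted p of 7.38e-05 (limma). A second Gpc6 probe did not move with it: its difference was 0.09 ± 0.12 (adjusted p = 0.998), and its 2 spots correlated at only r = 0.30 over the 12 arrays. Of 10 glypicans and syndecans measured, Gpc6 was the only one that passed the test.

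Lrrc8d and Gria3 came next among the named genes. Lrrc8d encodes a subunit of volume-regulated anion channels, which let chloride and small organic molecules leave swollen cells. Its ratio was 0.40 to 1.27 in musculus (median 0.81) and -0.99 to -0.52 in domesticus (median -0.74). These ranges lie on opposite sides of the pool, and the difference was 1.55 ± 0.25 (limma adjusted p = 0.00188). Lrrc8d was the only measured gene of the 5 LRRC8 subunits, and a second probe for it differed by -0.01 ± 0.06. Gria3 encodes a subunit of AMPA-type glutamate receptors, best known from synapses. It was 0.95 to 1.44 in musculus (median 1.17) and -0.49 to -0.09 in domesticus (median -0.37), a difference of 1.503 ± 0.21 (adjusted p = 0.000488). No other of 13 measured ionotropic glutamate receptor genes passed the test, and the second Gria3 probe differed by 0.01 ± 0.15.

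For 4 further genes the domesticus animals sat near the pool and the musculus animals above it. Tulp4, a tubby-like family member, ran from 0.24 to 1.83 in musculus (median 1.38) and from -0.20 to 0.20 in domesticus. Musculus animal 02 gave the low value and the other 5 were at 1.04 or above. Its difference was 1.26 ± 0.25 (limma adjusted p = 0.0141). Cdrt4 had the same shape, with musculus animal 03 at 0.16, the other 5 from 0.99 to 1.67, and domesticus within -0.07 to 0.09. The Cdrt4 difference was 1.16 ± 0.18 (adjusted p = 0.00146). Ctps2 encodes a CTP synthase, which makes CTP from UTP for nucleic acid and phospholipid synthesis. It was 0.90 to 1.501 in musculus (median 1.16) and -0.12 to 0.40 in domesticus (median -0.01). No animal of one sub-species reached the range of the other, and the difference was 1.14 ± 0.13 (adjusted p = 3.63e-05). Tfap2a, which encodes the transcription factor AP-2 alpha, was 0.45 to 1.29 in musculus (median 1.10) and -0.53 to 0.03 in domesticus, a difference of 1.18 ± 0.15 (adjusted p = 0.000108).

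The remaining named genes that rose had differences of 0.90 to 1.02. Col2a1, the chain of type II collagen of cartilage, was 0.82 to 1.29 in musculus (median 0.92) and -0.17 to 0.60 in domesticus (median -0.02). Only domesticus animal 03 was clearly above the pool, and the difference was 0.91 ± 0.12 (limma adjusted p = 0.000113). Pdcd6, a calcium-binding adaptor of membrane repair, differed by 1.02 ± 0.22. Rad54l2, a helicase-family protein, differed by 0.99 ± 0.22, but its musculus range of -0.24 to 0.68 overlapped the domesticus range of -0.997 to -0.22. Hoxa11os, the antisense transcript at Hoxa11, differed by 0.98 ± 0.18. The strand that its probe reads was not checked here. Smim5 (0.97 ± 0.15), Strn4, a striatin-family scaffold of phosphatase complexes (0.95 ± 0.16), and Fitm1, which acts in lipid droplet formation (0.90 ± 0.15), completed the set, each with groups that did not overlap.

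From animal to animal within a sub-species, some of these 14 genes moved together and others apart. After group means were removed, their 91 pairs correlated at a median r of 0.33 over the 12 arrays, with a range of -0.52 to 0.86. The highest value was that of Cdrt4 and Smim5. The median over all pairs of the 100 higher probes was 0.20, and over the 22 lower probes 0.03. These values are descriptions, since the arrays also share their pool and normalisation.

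The genes that fell in musculus were mostly below the pool in both sub-species. Whether the probes match the RNA of both sub-species and of the pool equally well was not tested, here or for the genes that rose. Mtus2, which encodes a microtubule-associated protein, was -2.55 to -1.79 in musculus (median -1.93) and -0.98 to -0.78 in domesticus (median -0.87). The groups were separated by a wide gap, with musculus animal 03 the lowest, and the difference was -1.13 ± 0.24 (limma adjusted p = 0.0243). Hhatl, a relative of the hedgehog acyltransferase, was -2.03 to -0.999 in musculus (median -1.79) and -0.98 to -0.37 in domesticus (median -0.62). Musculus animal 07 almost met the domesticus range, and the difference was -1.06 ± 0.21 (adjusted p = 0.0158). Rgs16 encodes a protein that shortens G-protein signals by speeding GTP hydrolysis. It was -1.61 to -1.12 in musculus (median -1.32) and -0.54 to -0.22 in domesticus (median -0.40), a difference of -0.95 ± 0.16 (adjusted p = 0.0031), and no other of 16 RGS genes passed the test.

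Hmga2 encodes an AT-hook chromatin protein active mainly in embryonic growth. Its ratio was -1.87 to -1.21 in musculus (median -1.58) and -0.79 to -0.39 in domesticus (median -0.59), without overlap. The difference was -0.94 ± 0.15 (limma adjusted p = 0.00174). Cfap126, a ciliary base protein, was -2.06 to -0.93 in musculus and -0.90 to -0.37 in domesticus, a difference of -0.91 ± 0.18. Hyls1, a centriole protein, differed by -0.63 ± 0.14.

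The smaller falls included Sorcs2 and Sorcs3, paralogous sorting receptors of the VPS10 family, at -0.52 ± 0.09 and -0.54 ± 0.12. Lipg, endothelial lipase, which hydrolyses phospholipids of high-density lipoprotein, ran from -0.92 to -0.64 in musculus and from -0.44 to -0.05 in domesticus. That is a difference of -0.54 ± 0.10 (limma adjusted p = 0.0118), while a second Lipg probe differed by 0.02 ± 0.06. Large2, a glycosyltransferase that modifies dystroglycan (-0.58 ± 0.12), Wdr1, which helps cofilin take actin filaments apart (-0.47 ± 0.11), and Mrto4, a ribosome assembly factor (-0.63 ± 0.14), also fell. For Mrto4 the highest musculus value, -0.65, overlapped the lowest domesticus value, -0.66.

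Prl7a1 and Prl7a2 encode prolactin-like hormones known from the placenta, and they fell together. Prl7a1 was -1.81 to -0.93 in musculus (median -1.35) and -0.63 to -0.26 in domesticus (median -0.35). Prl7a2 was -1.44 to -0.93 in musculus (median -1.13) and -0.53 to -0.16 in domesticus (median -0.20). Neither gene's groups overlapped, and the differences were -0.97 ± 0.14 (limma adjusted p = 0.00101) and -0.84 ± 0.15 (adjusted p = 0.00373). The 2 probes correlated at r = 0.96 over the 12 arrays and at r = 0.71 after group means were removed. They are paralogs, so both values are uncertain as to gene: probe sequences were not used here, and how far either probe reads the other gene's RNA was not tested.

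In RefSeq the 2 genes are neighbours, the only pair of adjacent tested protein-coding genes that were both called among 11897 such pairs. Of the 11918 genes in these pairs, 86 were called. Whether 1 such pair is more than that rate gives was not tested. The upstream sequences of Prl7a1 and Prl7a2 are shown because the pair moved together. The bases before the start site listed for each gene in RefSeq's promoter table are given (GRCm38.p6, minus strand, 5′ to 3′), for Prl7a1 at chr13:27642494-27642743 and for Prl7a2 at chr13:27668037-27668286, with the letters TATATA in capitals. The last 16 bases of the Prl7a2 stretch lie inside RefSeq's gene model, which begins farther upstream.
Prl7a1: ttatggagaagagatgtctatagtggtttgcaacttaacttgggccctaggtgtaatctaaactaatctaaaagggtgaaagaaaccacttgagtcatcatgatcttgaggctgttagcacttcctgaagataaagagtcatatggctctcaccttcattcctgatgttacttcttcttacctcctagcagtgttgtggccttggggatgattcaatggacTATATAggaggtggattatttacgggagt
Prl7a2: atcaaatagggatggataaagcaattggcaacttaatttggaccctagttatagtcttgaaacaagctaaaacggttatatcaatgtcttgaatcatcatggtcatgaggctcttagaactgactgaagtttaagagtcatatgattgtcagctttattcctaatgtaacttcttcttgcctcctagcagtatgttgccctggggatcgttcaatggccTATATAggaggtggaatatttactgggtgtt

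Without gaps or shift, the 2 stretches were identical at 58 positions (23.2%). A shift of 1 base, chosen because it gave the most matches, made 143 of 249 positions identical. TATATA, which reads the same on both strands, began at -29 in Prl7a1 and at -31 in Prl7a2, counted from those start sites. Counted from the upstream end of the Prl7a2 gene model, it began at -15 in that gene. It occurred in 5.56% of 27025 RefSeq upstream stretches of the same length. These matches describe letters only. Of 20 measured genes of the prolactin and growth hormone family, 2 passed the test, both lower in musculus, against 0.755% of all genes. This family was listed with earlier results of these data known, so its count is not read as a result. The family median was -0.04, and the highest value was 0.38 for Prl2c4, which did not pass.

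The gene lists cover liver, kidney and other cell functions and families of some of the named genes. Of 1304 measured genes in any of the 42 lists, 10 were called (0.767%), against 0.755% of all genes, and 33 lists had no called member, 8 had 1, and 1 had 2. Gpc6, Lrrc8d, Gria3, Rgs16, Prl7a1 and Prl7a2 were called in lists of families of named genes. Bmp6, Scnn1g, Klf1 and Olfr394 were called in the other lists. The family lists were written with earlier results known, so the nearness of the shares is not read as a result. List values average a gene's probes, and over all 13643 genes the median was -0.00, with 6659 genes above 0 and 6984 below. Among 25 measured hepatocyte plasma protein genes 0 passed the test, 20 were below 0 and the median was -0.07. The median ratio of these genes to the pool ran from 0.10 to 0.23 over the musculus arrays and from 0.11 to 0.35 over the domesticus arrays, so the ranges overlapped. Coagulation factors gave a similar picture, with 0 of 22 called, 16 below 0 and a median of -0.05.

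Among 35 proximal tubule genes 0 were called, 23 were above 0 and the median was 0.04. Their array medians ran from -0.02 to 0.02 in musculus and from -0.06 to -0.00 in domesticus. Lists of other tissues leaned to a similar degree. Of 13 adrenal genes 10 were below 0 (median -0.06), and of 27 pancreas and gut genes 20 were above 0 (median 0.03). The other kidney lists had medians of 0.014 (loop, distal tubule and collecting duct) and 0.004 (glomerulus). What share of each extract came from each organ was not measured. Among 50 cytochrome P450 genes, the main oxidising enzymes of drugs and steroids, 0 passed the test, and the values ran from -0.43 for Cyp3a25 to 0.67 for Cyp2d26. The 38 genes of the urea cycle and amino acid breakdown also had 0 called, with Kynu at 0.69 and Haao at -0.69. Cytosolic ribosomal proteins (64 genes), oxidative phosphorylation (71) and Zfp zinc fingers (166) likewise had 0 called. Over the 20652 probes, 1305 had an unadjusted p under 0.05, against the 122 called after adjustment.

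The few list members that passed were single genes. Bmp6, the signal by which liver endothelium reports iron stores to hepatocytes, was 0.55 to 0.80 in musculus (median 0.65) and -0.36 to 0.07 in domesticus (median -0.11). The difference was 0.77 ± 0.13 (limma adjusted p = 0.00247), and it was the only one of 27 iron and haem genes called. Scnn1g, the gamma subunit of the epithelial sodium channel of the collecting duct, was 0.27 to 0.69 in musculus and -0.30 to 0.00 in domesticus. It differed by 0.52 ± 0.10 (adjusted p = 0.0093), the only one of 28 loop, distal tubule and collecting duct genes called. Klf1, the erythroid master regulator, was 0.45 to 1.31 in musculus and -0.21 to 0.45 in domesticus, ranges that almost met, with a difference of 0.89 ± 0.20 (adjusted p = 0.0357). Of the other 15 red cell genes none passed, and the adult globin Hba-a1 differed by -0.21 ± 0.17. Among 122 olfactory receptors 1 passed, Olfr394, at 0.74 ± 0.17 (adjusted p = 0.0494).

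The calls were made on the mean of a probe's 2 spots, so how the spots compare is a description. For 118 called probes a difference could be fitted from each spot alone. All 118 had the same sign, and 112 differed by less than 0.2 between spots. Fitted alone, the first spot called 76 of 118 and the second 83 of 122. The 2 spots correlated over the 12 arrays at a median r of 0.95 for the called probes against 0.48 for all tested probes. Called probes lay in 42 of the 48 printed blocks of the array, at most 7 in a block.

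**Figure D2:**
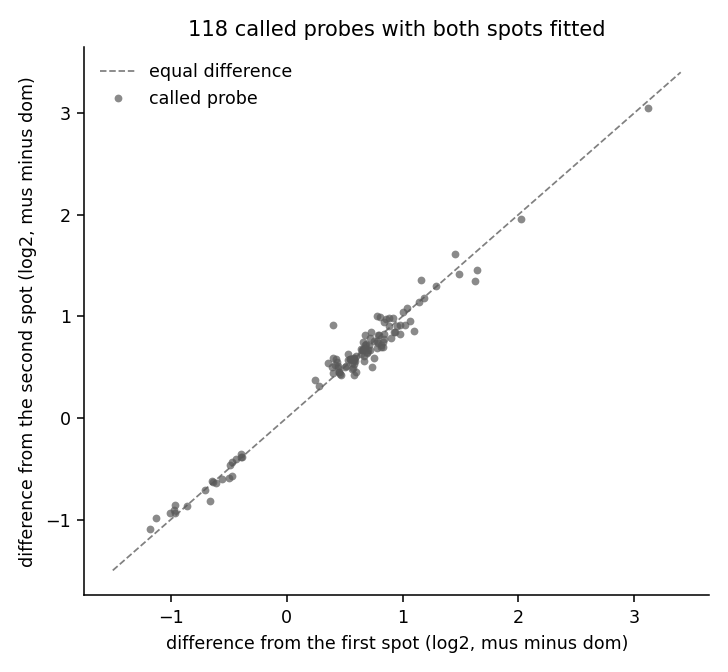
Difference between musculus and domesticus (log2) from the first spot (horizontal axis) and the second spot (vertical axis) of each called probe with both spots fitted, with a dashed line at equality. All 118 points lie in the quadrants of equal sign, near the line.

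Different probes of 1 gene, in contrast, did not repeat the differences. For 10 of the called genes the array held 11 other tested probes, and 0 of these were called. Their differences were at most 0.09 in size, with a median of 0.02, and 7 had the sign of the called probe. Spot correlations of these other probes ran from -0.47 to 0.86, against 0.85 to 0.99 for the called probes of the same genes. The genes were Gpc6, Gria3, Lhx6, Lipg, Lrrc8d, Ncam1, Ppt1, Tbl1xr1, Tulp4 and Wdfy3, so several of the largest differences rest on 1 of 2 probes. For Ncam1 the other probe with the highest spot correlation, 0.86, differed by 0.06 ± 0.14. Which transcripts each probe detects, and whether its match to the RNA differs between the sub-species, was not tested.

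In brain of the same animals, most of the called liver/kidney differences had the same sign. Of the 122 called probes, 101 had the same sign in brain, 87 of the higher and 14 of the lower, against 50.7% of all probes tested in both tissues. The probes were chosen for their liver/kidney difference, so its size beside that in another organ is not read as a result. An unadjusted p under 0.05 was reached in brain by 39 of the 122 (32.0%), all with the liver/kidney sign, against 9.33% of all probes. The median brain difference was 0.22 for the higher probes and -0.07 for the lower ones. In brain 46 of 20621 probes were called at an adjusted p under 0.05 (0.223%), and 2 of them were among the 122: Hmga2, at -0.78 ± 0.17 (limma adjusted p = 0.0464), and an unnamed probe, at 0.64. These calls rest on few arrays: without the brain array of musculus animal 08 the count was 16, with 1 of the 122, and without those of musculus animals 05 and 07 it was 30, with 0 of the 122. Hmga2 in brain was then -0.77 (adjusted p = 0.0753) and -0.76 (adjusted p = 0.0985). Gpc6 in brain was 0.48 to 1.499 in musculus (median 0.95) and -0.73 to 0.29 in domesticus (median -0.14), again without overlap, with a difference of 1.17 that did not pass the adjusted test (limma adjusted p = 0.157).

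The arrays used for brain were not of 1 kind. On the brain arrays of musculus animals 05 and 07 the spots without a value followed another pattern than on the other 10, and without them 97 of the 122 had the same sign and 31 reached an unadjusted p under 0.05. The brain array of musculus animal 08 bears a channel label that names another sub-species than its title, and without it 103 had the same sign. All 12 liver/kidney arrays shared 1 pattern of spots without a value (r = 0.57 to 0.66 between arrays).

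In testis 78 of the 122 had the same sign (50.2% of all probes), and 20 reached an unadjusted p under 0.05 (16.4%), 18 of them with the liver/kidney sign, against 6.59% of all 20754 probes. At an adjusted p under 0.05, 0 were called. The median testis difference was 0.03 for the higher and -0.24 for the lower probes. The lower set includes Hmga2 at -0.74 and Mtus2 at -0.62. Without the testis arrays of musculus animals 07 and 08 and domesticus animal 01, which had the other pattern, 79 had the same sign and 17 reached an unadjusted p under 0.05. Whether a share of same-sign probes differed between brain and testis was not tested.

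A model over the 3 tissues, with the animal as a random block, tested whether a difference in liver/kidney was unequal to that in another tissue. Against brain, 8 of 20589 probes were called (0.0389%), and 6 of them were among the 122. Those with a name were E130120K24Rik, Col2a1, Ctps2 and Cfap126. Ctps2 differed by 1.14 in liver/kidney and by -0.03 in brain, where musculus ran from 0.06 to 0.71 and domesticus from 0.18 to 0.67, and the gap between the tissues was 1.17 ± 0.22 (limma adjusted p = 0.00811). Col2a1 differed by 0.91 and 0.04 (adjusted p = 0.00769 for the gap). Cfap126 fell in liver/kidney by 0.91, while its brain value was 0.39 with an interaction adjusted p of 0.019.

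Against testis, 35 probes were called (0.17%), 30 of them among the 122. The tests against brain and testis contain the liver/kidney difference by which the 122 were chosen. Overlap with the 122 is therefore partly built in and is not read as a result. Gpc6 differed by 3.08 in liver/kidney and by 0.56 in testis, a gap of 2.53 ± 0.48 (limma adjusted p = 0.00307). In testis its musculus range of 0.10 to 1.15 overlapped the domesticus range of -0.13 to 0.18. Gria3 (gap 1.34 ± 0.24), Tfap2a (1.08 ± 0.21), Ctps2 (1.09 ± 0.22) and Prl7a1 (-0.91 ± 0.19) were also called in that test. The gap of Gpc6 between liver/kidney and brain did not pass (adjusted p = 0.151). For Lrrc8d, with 1.55 in liver/kidney, 1.00 in brain and 0.11 in testis, neither test of the gap passed (limma adjusted p = 0.777 against brain and 0.0828 against testis).

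**Figure D3:**
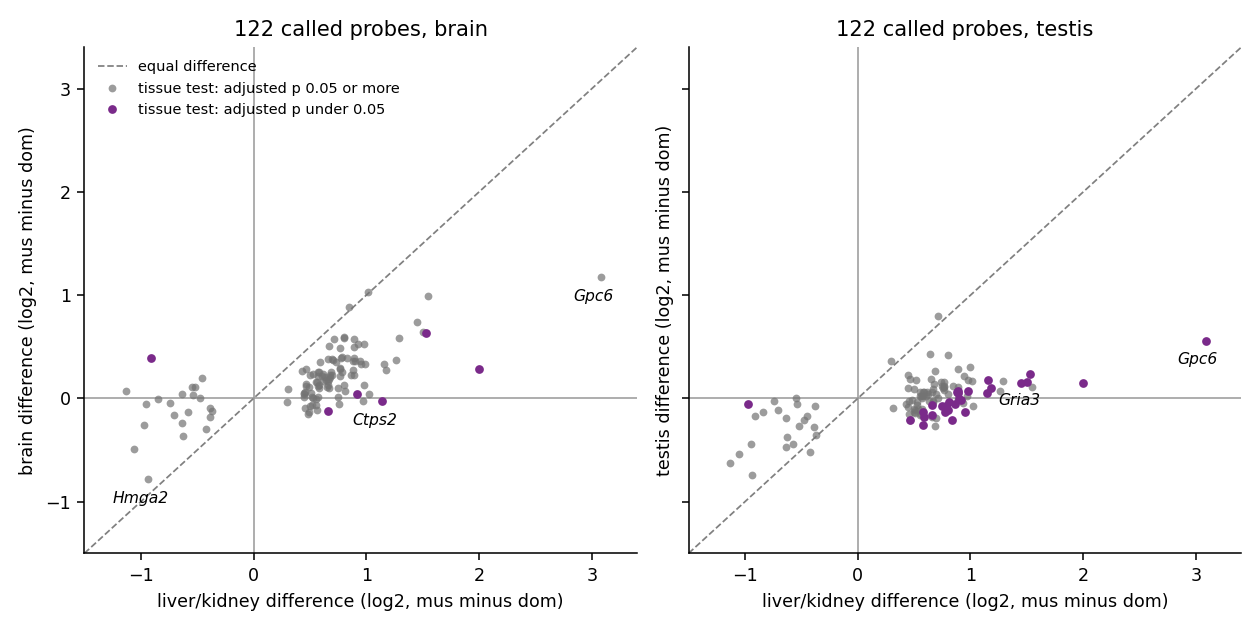
Difference between musculus and domesticus (log2) of the 122 called probes in liver/kidney (horizontal axis) against brain (left) and testis (right), with a dashed line at equality and purple points where the tissues differed at an adjusted p under 0.05. Gpc6 lies at 3.08 in liver/kidney, 1.17 in brain and 0.56 in testis, and 6 points are purple for brain and 30 for testis.

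The other mice of the study show where the called probes stood elsewhere in the same organ. Of the 100 probes higher in musculus, 50 had a mean in the 6 animals of the group labelled ssp that was nearer to musculus than to domesticus, as did 12 of the 22 lower ones, against 54.3% of all probes. For 3 castaneus animals the counts were 42 and 10, against 51.1%, and for 3 spretus animals 37 and 4, against 50.2%. Gpc6 had a mean ratio of 1.68 in that group, 1.41 in 3 castaneus animals and -0.73 in 3 spretus animals, against 2.10 in musculus and -0.99 in domesticus. Ctps2 was 0.91, 0.84 and 0.16 in the same order. Lrrc8d, in contrast, was -0.24, -0.34 and -0.39, all below the pool as in domesticus. Hmga2 was low in all 3, at -1.67, -1.43 and -1.08. The castaneus and spretus arrays had another pattern of spots without a value (r of -0.01 to 0.03 with the 12 arrays), and these levels were not tested.

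No difference between the sub-species was called for the genes of widest spread between animals, whose large SD, by which they were chosen, also enters the test. The rule for these took the 8 genes with the largest SD within groups among probes whose spots correlated at 0.8 or more. Mup5, Mup3 and Mup2, which encode major urinary proteins, led with pooled SDs of 1.39, 1.30 and 1.13, where the median over all tested probes was 0.13. Mup5 ran from -1.58 to 2.08 in musculus (median 0.56) and from -1.08 to 2.25 in domesticus (median 0.20). Both sub-species spanned nearly the whole range, and the difference was 0.03 ± 0.68. Mup3 differed by 0.20 ± 0.63 and Mup2 by 0.09 ± 0.61 (limma adjusted p = 0.998 for each).

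Other genes of wide spread followed the Mup probes from animal to animal. Over the 12 arrays Mup5 correlated at r = 0.98 with Mup3, at 0.97 with Mup2 and at 0.97 with Nr5a2, a nuclear receptor of bile acid and cholesterol metabolism. The values were 0.92 for Ssr1, 0.96 for Phactr3 and 0.96 for Ubap2. The pooled SDs of these 4 genes were 0.95 to 0.99, and their differences between sub-species ran from 0.08 for Phactr3 to 0.27 for Ssr1, with none called. Probes outside the 8 genes also followed Mup5, among them Kcnj16 (r = 0.98), Sycp3 (0.97) and Olfr70 (0.96), picked here after their values were seen. Whether any of these probes read Mup RNA was not tested. Nufip1 (pooled SD 0.96) was another case: musculus animal 08 stood at -3.21, the other 11 animals lay within -0.22 and 0.31, and without that array the SD was 0.125.

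**Figure D4:**
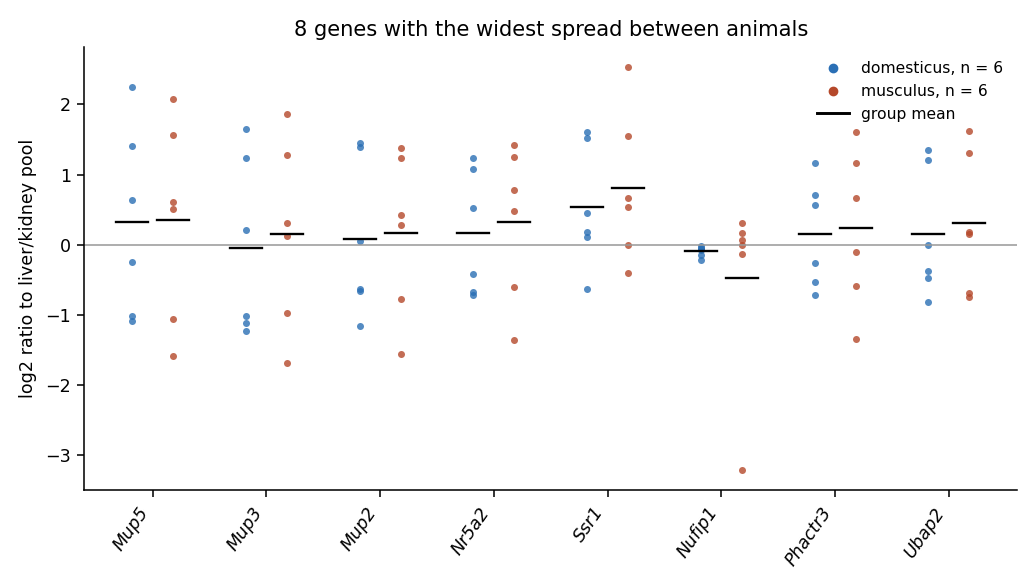
Log2 ratio to the liver/kidney pool (vertical axis) of the 8 genes with the widest spread between animals, with 1 point per animal (n = 6 per sub-species), a bar at each group mean and a line at 0. Mup5 spans -1.58 to 2.08 in musculus and -1.08 to 2.25 in domesticus, and Nufip1 has a single low animal at -3.21.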

How the data were processed

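The authors deposited 1 log ratio per spot for each 2-channel array, taken here as log2 of animal over C57BL6 pool. Neither the log base nor the direction, the background correction or the normalisation is stated (not given in the sources used here). Adjacent duplicate spots of a probe were averaged and each array's median set to 0. Probes with at least 2 values in each of the 5 groups of the organ (24 arrays, 1 per animal) entered linear models with moderated variances (limma 3.58.1 under R 4.3.3, tables read by version 1.17.8 of data.table) and were called at a Benjamini-Hochberg adjusted p under 0.05. The 3-tissue model used the animal as a random block (correlation 0.02). Gene names came from the platform annotation, and 102 of the 103 called genes were found by RefSeq gene identifier or symbol. Positions and upstream sequences were handled in pandas 2.3.3 under Python 3.11.15, figures were drawn by matplotlib 3.10.9 with numpy 2.4.6, and the fits were tested on simulated data.

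The named genes are the 14 largest called differences in each direction among probes with 1 symbol, leaving out RIKEN clones and model names, plus up to 3 called members of each gene list and the 8 genes of widest spread. The members, lists and rules were chosen with earlier results of these data known. The labels do not say whether animals were litter mates. The p-values of the main liver/kidney fit set a difference against the spread between the measured animals. That spread was estimated within all 5 groups of the organ, not only within musculus and domesticus. The castaneus and spretus arrays, with another pattern of spots without a value, are among them. Animal numbers 03 and 05 occur in both sub-species for different animals, whose deviations from their group means correlated at r = -0.06 and -0.08, so numbers were not used as pairs. The number of arrays limits the precision. Alternatives were other sets of arrays, centring, single spots, filters, weights, blocks and leaving out each array.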

Additional observations from a re-analysis of the deposited data

Results flagged for a closer look

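In 5 of the 80 groups of 6 animals examined for the named genes and the genes of wide spread, 1 animal lay far from the other 5, measured as its gap to the nearest other animal divided by the whole range of the group. For groups taken without selection, chance gives about 1 in 20. These genes were chosen by the test or by their spread in the same values, so that rate need not hold here. The count is not read as a result. Col2a1 showed it in both sub-species. Musculus animal 04 stood at 1.29 against 0.82 to 0.95 in the others (ratio 0.728), and domesticus animal 03 at 0.60 against -0.17 to 0.02 (0.756). Musculus animal 03 was the lowest for Mtus2, at -2.55 against -2.05 to -1.79 (0.658), and for Sorcs2, at -0.98 against -0.73 to -0.59 (0.638). Nufip1 in musculus animal 08 was at -3.21 against -0.13 to 0.31 (0.875).

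Several named genes differed between musculus and domesticus by unequal amounts in liver/kidney and another organ, by the 3-tissue limma model with adjusted p-values over all probes. Against brain these were Ctps2 (a gap of 1.17), Col2a1 (0.87) and Cfap126 (-1.30). Against testis they were Gpc6 (2.53), Gria3 (1.34), Tfap2a (1.08), Ctps2 (1.09), Cdrt4 (0.98), Col2a1 (0.93), Hoxa11os (0.91), Fitm1 (0.90) and Prl7a1 (-0.91). Adjusted p-values ran from 0.00133 for Col2a1 and Gria3 to 0.0398 for Hoxa11os.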

How the results depend on the processing

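All 122 differences kept their sign under every alternative in which they could be fitted, while the count of calls moved. It was 250 on the 12 arrays alone, 207 after quantile normalisation, 319 with array weights (221 higher and 98 lower in musculus) and 79 with a 1.5-fold minimum. Leaving out 1 array gave 66 to 108, the lowest without musculus animal 04 and next without animal 05 (72). With the animal number as a fixed replicate block 10 were called, all higher in musculus and 9 of them among the 122, and 3 of the 32 named genes kept the call (Gpc6, Ctps2 and Scnn1g); as a random replicate block 120 were called. The numbers do not pair these animals, so this block has no basis in the design. No centring, centring within blocks, either spot alone, the filters and robust eBayes gave 85 to 126. For the named genes 477 of 606 alternative fits kept the call and 129 lost it, with 0 reversed, and 20 of 32 genes were called without any 1 array. Olfr394, Wdr1, Sorcs3, Klf1, Mrto4, Hyls1, Rad54l2, Pdcd6 and Mtus2 lost the call in 7 to 12 of the 12 such fits. The first spot alone lost 7 named genes and the second 5.

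The test against brain called 8 probes, 39 with only the musculus and domesticus arrays, 65 after quantile normalisation, 4 to 11 without 1 array and 5 without the brain arrays of the other pattern. The test against testis called 35, and 117, 123, 25 to 53 (highest without the testis array of domesticus animal 13) and 16 in the same order. The fits without 1 array and without the arrays of the other pattern also left out the animal as a random block. Only a further fit without the brain array of musculus animal 08 kept it. The cause of these shifts was not tested. Alternatives that leave out arrays in these tests or remove arrays of the other pattern were chosen after seeing the data.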

Other observations

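Outside the rule for named genes, the second largest difference of a probe with a symbol belonged to E130120K24Rik, a RIKEN clone, chosen here after its values were seen. It was 0.85 to 1.99 in musculus (median 1.68) and -0.80 to -0.20 in domesticus (median -0.44), a difference of 2.00 ± 0.23 (limma adjusted p = 3.63e-05). In brain it was 0.28 and in testis 0.15, and the test of the gap passed against both organs. RIKEN clones made up 13.9% of the called probes against 7.51% of those tested, and unnamed probes 15.6% against 26.8%.

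Other called genes, also chosen after their values were seen, are given singly, with no group tested. Higher in musculus were the chemokine Ccl12 (0.79 ± 0.13), the chemokine Ccl25 (0.68 ± 0.14), the chemokine receptor Ccr6 (0.69 ± 0.11), the platelet and endothelial adhesion receptor Selp (0.83 ± 0.14) and the interleukin-17 receptor Il17ra (0.46 ± 0.09). Among 27 measured markers of liver macrophages and other leukocytes 0 passed the test, and their median difference was 0.02. The transcription factors Etv2 (0.89 ± 0.21), Foxf2 (0.66 ± 0.14), Meis3 (0.57 ± 0.13) and Lhx6 (0.56 ± 0.11) were also higher, as were Lsr, the lipolysis-stimulated lipoprotein receptor (0.75 ± 0.10), Slc27a3, of the fatty acid transport protein family (0.58 ± 0.12), and Mdh1, cytosolic malate dehydrogenase (0.50 ± 0.10). Lower ones included the choline kinase Chkb (-0.39 ± 0.09) and the lysosomal thioesterase Ppt1 (-0.42 ± 0.10).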
